A study of Mus musculus with 4 samples.

Results

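Kitl and Kit are a ligand and its receptor. They were chosen by gene name among the non-control probes of a mouse expression array, where each is read by 1 probe, so that 2 of 29675 genes and 2 of 39429 probes are described. Kitl encodes stem cell factor (SCF) and Kit its receptor, also known as c-Kit or CD117.

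The data come from 4 single-channel arrays, with 1 array per group and no replicates. The groups were Swiss 3T3 cells, a mouse fibroblast line, of genotype Lpar1+/+ (WT) or Lpar1-/- (KO), each labelled as cocultured for 0 h or 24 h. The coculture partners were mast cells grown from mouse bone marrow. Where 4 values follow each other, they stand for WT then KO at 0 h, followed by WT then KO at 24 h. The KO line is 1 CRISPR/Cas9 clone, grown from a single cell, and Lpar1 encodes a receptor for lysophosphatidic acid. These mast cells were WT and had been grown in IL-3. The labels give 100 ng/ml of mouse SCF in the coculture, so the ligand was also supplied as protein, which an RNA array does not read. RNA was pooled from 3 samples for each array. The labels do not say whether the 0 h samples held mast cells, and the study's design text speaks of cocultures with and without them. After coculture the cells were parted by reseeding, or fibroblasts were purified with beads against CD117, which is the Kit protein itself. Which arrays used the beads is not given in the labels.

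SCF is made by stromal cells such as fibroblasts as a membrane-bound protein, part of which is cut off and released. It binds Kit, a class III receptor tyrosine kinase, on mast cells, blood progenitors, pigment cells and germ cells. Kit then activates PI3 kinase, Ras and MAP kinases, Src family kinases and STAT5, and mast cells depend on it for survival, growth and maturation. Fibroblast lines such as 3T3 have long served as feeder layers for mast cells for this reason.

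The stretch that each probe reads sets what its signal means, so the first 30 of the 60 bases of both probes are shown, 5′ to 3′, as the array files give them, with no base singled out by capitals.

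Kitl: tcttcagtcacaacctgcagcctgtcgtta

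Kit: gtcaggtacttaaggggccacaccattgag

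The Kitl probe lies at chr10:99558962-99559021 and the Kit probe at chr5:76052394-76052453, both in mm9 per the file headers. The Kitl probe starts at base 1368 of its transcript and is listed for 2 RefSeq transcripts, NM_013598 and NM_001347156. The Kit probe starts at base 4828 and is listed for NM_001122733 and NM_021099. Both positions lie beyond the coding part of these transcripts, in the 3′ untranslated region. Each probe therefore reads the listed transcripts together, and neither separates isoforms such as the membrane-bound and the readily released SCF.

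Signals are given as log2 of the processed intensity less the array's own 75th percentile, so 0 is the 75th percentile of that array. Well above background is the scanner software's own flag, which 62.1% to 72.7% of the non-control spots of an array carried, and no spot was saturated. Standard errors (SE) come from the software's spot error. Probes printed 10 times on an array had a median SD of 0.07 to 0.11 log2. These errors cover neither culture nor labelling, and with 1 array per group there is no test and no p-value: a difference is called where it reached 2-fold, which describes these arrays only. Precision is limited by the number of arrays.

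The arrays labelled 0 h carried strong mast cell signal and those labelled 24 h little. All 22 mast cell markers other than Kit were well above background on both 0 h arrays, with medians of 3.04 on WT 0 h and 4.11 on KO 0 h. At 24 h, 17 (WT) and 16 (KO) of them were, with medians of −4.20 and −3.75. The log2 of their summed signal was 8.78, 9.27, 2.25 and 4.55. Il1rl1, the IL-33 receptor, departed from the other mast cell markers at 24 h, at −2.24 in WT and 3.86 in KO. Of 21 fibroblast markers, 19 or 20 were well above background on each array taken singly, and 18 on all 4. Thy1, a fibroblast surface marker, read −7.02 (WT) and 3.73 (KO) at 0 h, and 4.12 on KO 24 h against a reading on WT 24 h that was not well above background, at least 1246-fold apart.

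Kitl was lower on both KO arrays than on both WT arrays. It read −1.07 (WT) and −3.13 (KO) at 0 h and −0.62 (WT) and −1.86 (KO) at 24 h, from processed intensities of 571, 115, 603 and 207 units. All 4 readings were well above background, where the local background was 25.0 to 27.0 units. The WT arrays were the 2 highest and KO 0 h the lowest.

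**Figure D1:**
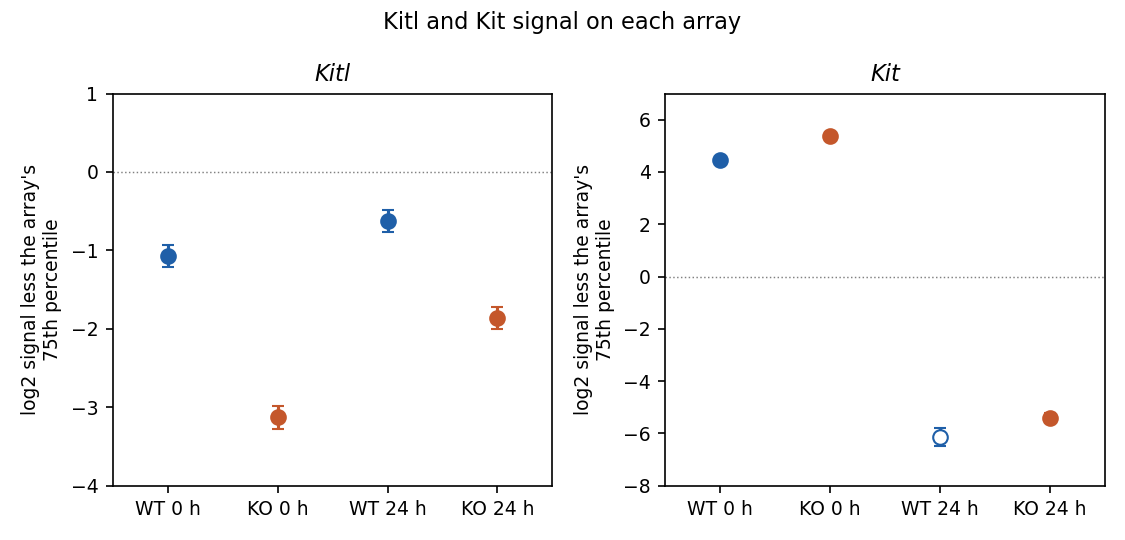
Log2 signal of Kitl (left) and Kit (right) less the array's 75th percentile, on each of the 4 arrays (blue WT, orange KO); bars are the spot-error SE and the open point is not well above background. Kitl lies lower on both KO arrays (−3.13 and −1.86) than on the WT arrays (−1.07 and −0.62), and Kit lies at 4.45 and 5.37 at 0 h against −6.14 and −5.40 at 24 h.

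At 0 h, KO minus WT for Kitl was −2.06 (SE 0.21), so the KO signal was 24.0% of the WT signal. At 24 h the difference was −1.24 (SE 0.20), or 42.3%. Of the genes measured, which are those well above background on both arrays, 4.04% of 20324 were at least 2-fold lower in KO at 0 h and 12.2% of 17316 at 24 h. The share as low as Kitl or lower was 0.959% at 0 h and 8.80% at 24 h. A Kitl reading 2-fold lower was thus uncommon on the 0 h arrays and less so on the 24 h arrays.

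In RNA from mixed cells, fewer cells of a type and less of a transcript per cell cannot be told apart, and the KO 0 h array read higher for mast cell markers and lower for fibroblast markers than WT 0 h. The part of cell makeup in the Kitl readings was not tested. The fibroblast markers had a median KO minus WT difference of −0.74 at 0 h, with 2 higher and 9 lower by 2-fold of 20 measured, and of −0.20 at 24 h, with 1 higher and 6 lower of 18. At 0 h 4 of the 20 lay below Kitl and at 24 h 5 of the 18. Kitl less the fibroblast median was −1.31 at 0 h and −1.04 at 24 h. Of the markers measured, the lowest was Fbln1 (fibulin 1) at both times, at −3.07 and −2.36. Fap was not well above background on KO 24 h and so is not among the 18. It was lower in KO there by at least 63.4-fold. Thy1, also outside the 18, was higher in KO by at least 1246-fold.

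**Figure D2:**
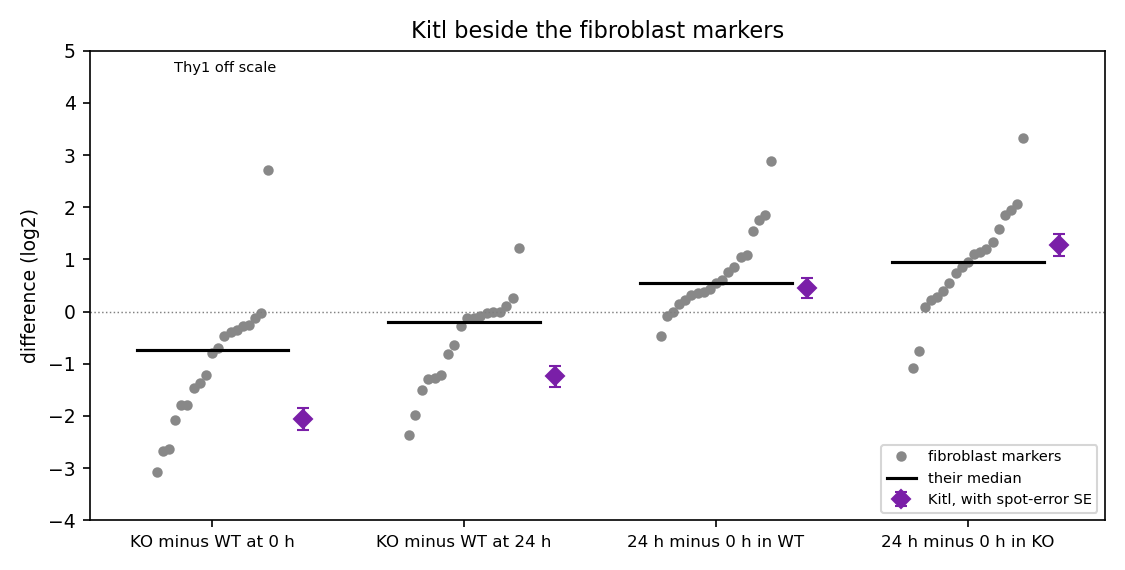
Log2 differences of the measured fibroblast markers (grey points, sorted from low to high within each comparison, with their median as a black line) and of Kitl (purple, with spot-error SE) in each comparison; Thy1 in KO minus WT at 0 h (10.74) is off the scale. Kitl lies below the median in both genotype comparisons and near it in both time comparisons.

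Scaled to the median level of the fibroblast markers, the genotype difference of Kitl was nearly the same at both times. For this, the median of the 18 fibroblast markers well above background on every array was subtracted from each array in place of the 75th percentile, which moves all differences of a comparison by a constant. That constant was 1.05 for KO minus WT at 0 h, 0.31 at 24 h, −0.29 for the times in WT and −1.03 for the times in KO. On this scale Kitl read −3.64, −4.64, −3.47 and −4.40. The genotype difference was then −1.01 at 0 h and −0.93 at 24 h, the second just short of 2-fold. The median level is not the median difference. On this scale the measured markers' own median KO minus WT difference was 0.31 at 0 h and 0.11 at 24 h. Kitl less the markers' median difference was −1.31 and −1.04, so the near-equality depends on this choice. The sign of the Kitl genotype difference was the same in all 6 alternative settings at both times. It lay between −2.31 and −1.01 at 0 h and between −1.68 and −0.93 at 24 h.

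Between times, Kitl was higher at 24 h than at 0 h in KO and little different in WT. The difference was 1.27 (SE 0.21) in KO, which is past 2-fold, and 0.45 (SE 0.20) in WT, which is not. Among all genes measured, 9.47% in KO and 15.8% in WT were at least 2-fold higher at 24 h. The fibroblast markers had medians of 0.95 in KO and 0.55 in WT. Kitl lay above 13 of 19 of them in KO and above 9 of 19 in WT. Kitl less their median difference was 0.32 in KO and −0.10 in WT. With fibroblast marker scaling the Kitl difference was 0.24 in KO and 0.17 in WT, and with spike-in RNAs set equal it was 0.92 in KO, so the 2-fold call in KO ends under both.

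The KO difference between times exceeded the WT difference by 0.82 (SE 0.29), short of 2-fold, and by 0.08 with fibroblast marker scaling. The second value depends on the same choice of the median level. All 4 Kitl differences draw on the same 4 arrays and are not independent of each other. In the order of Kitl levels, WT 24 h lay above WT 0 h by 0.45 (SE 0.20), WT 0 h above KO 24 h by 0.79 (SE 0.20), and KO 24 h above KO 0 h by 1.27 (SE 0.21). On this scale each neighbour differed by more than 2 SE of the spot error, which is no spread between cultures. With fibroblast marker scaling the differences between times, 0.17 in WT and 0.24 in KO, were under 2 SE.

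**Figure D3:**
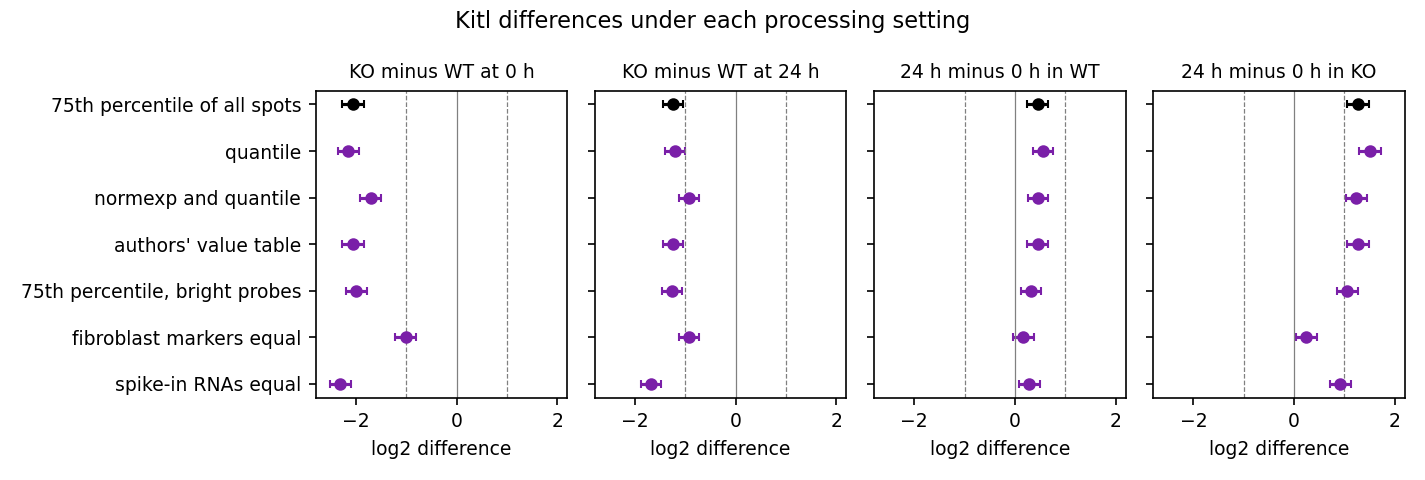
Log2 difference of Kitl in each comparison (panels) under the main setting (black) and 6 alternatives (purple), with spot-error SE as bars; dashed lines mark 2-fold. KO minus WT lies below 0 in all settings, while 24 h minus 0 h in KO drops from 1.27 to 0.24 with fibroblast marker scaling.

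Kit was abundant on the 0 h arrays and dim on the 24 h arrays. It read 4.45 on WT 0 h and 5.37 on KO 0 h, from 26248 and 41449 intensity units. On WT 24 h it read −6.14, from 13.1 units, and was not well above background. On KO 24 h it read −5.40, from 17.7 units, and was well above background, where the lowest such signal on that array was −6.69.

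In WT, Kit at 0 h read 1545-fold above Kit at 24 h as measured, where the 24 h reading was not well above background. An at-least fold sets the bright signal against the higher of the dim reading itself and the lowest signal well above background on the dim array. For Kit in WT the dim reading (−6.14) was the higher, against −6.16, so 1545 is no firm bound. In KO, where both readings were well above background, the 24 h minus 0 h difference was −10.77 (SE 0.24), and the 24 h signal was 0.0573% of the 0 h signal. Of all genes measured, 10.9% in KO and 5.57% in WT were at least 2-fold lower at 24 h. Of 17881 genes measured in KO, 6, Kit included, had a difference as low as that of Kit. That count leaves out genes not well above background on KO 24 h, including any that read lower than Kit there. It is therefore no rank among all genes. With normexp background correction, which adds an offset to dim signals, the differences were −8.43 in WT and −9.05 in KO.

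The other mast cell markers were lower at 24 h as well. In WT all 17 that were well above background at both times were at least 2-fold lower (median −7.23), and 5 more were lower by at-least folds. In KO these counts were 16 of 16 (median −6.87) and 6 more. In WT Kit was not well above background at 24 h, so its difference cannot be ranked against Tph1 (−10.64), the enzyme that starts serotonin synthesis. In KO, of the 16 markers measured at both times only Alox5 (−10.89), the leukotriene enzyme, lay below Kit (−10.77), by less than the SE of 0.24. Gata1, a transcription factor of mast and red cells, and Ms4a2, a chain of the IgE receptor, were not well above background on KO 24 h and have at-least folds of 1603 and 525. The smallest differences were those of Hdc (−1.72 in WT), which makes histamine, and of Rab27b (−2.02 in KO), a granule transport protein. The part that selection with beads against CD117 had in the low Kit readings was not tested.

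**Figure D4:**
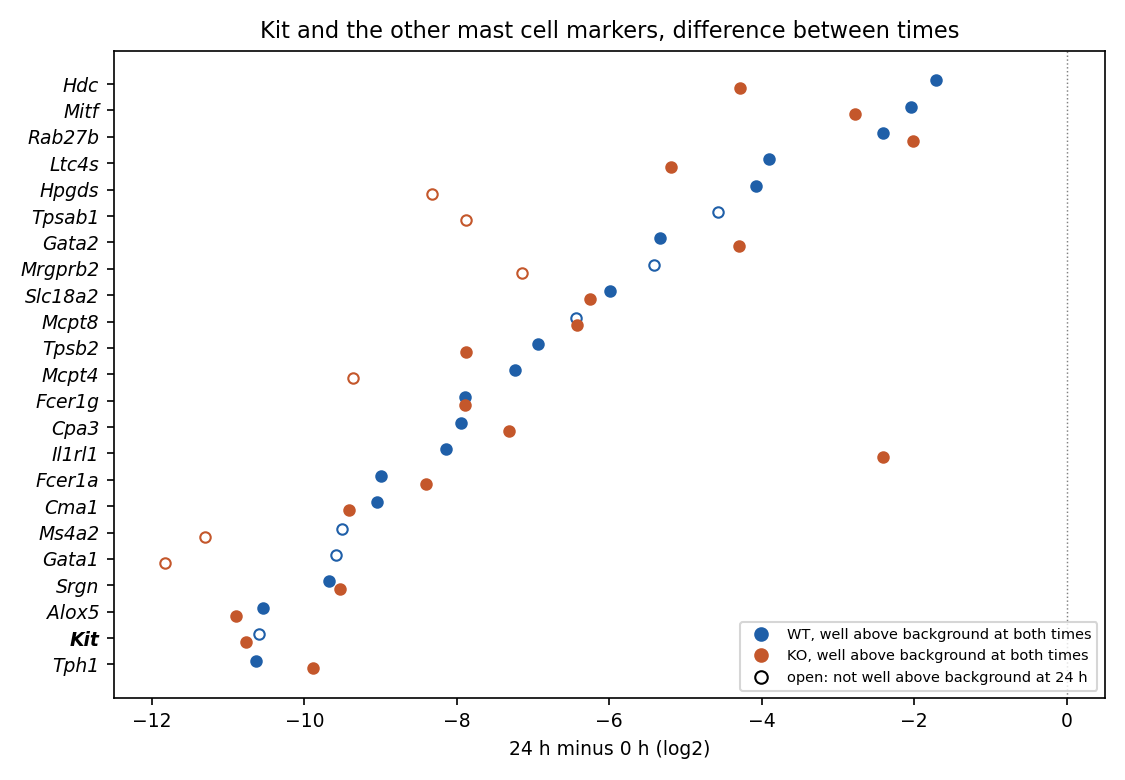
The 24 h minus 0 h difference (log2) of Kit and 22 other mast cell markers in WT (blue) and KO (orange), sorted by the WT value; open points were not well above background at 24 h. Kit lies at −10.77 in KO and at −10.59 as measured in WT, where it is an open point, so its place among the lowest markers is not determined.

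At 0 h Kit was higher in KO by 0.91 (SE 0.20), 1.88-fold and so short of 2-fold, where 9.26% of all genes were at least 2-fold higher. The other mast cell markers were higher there too, by a median of 1.01, with 12 of 22 past 2-fold and none lower. That count was 0 with spike-in scaling and 22 with fibroblast marker scaling, and the median was above 0 in both (0.76 and 2.06). Of them 8 lay below Kit and 14 above, from Cpa3 (0.06), a mast cell protease, to Rab27b (1.21). Kit less the median of the others was −0.09. With scaling to the median level of the other mast cell markers the Kit difference was −0.22, so its direction turned. With fibroblast marker scaling it was 1.97. The mast cells were WT, so the genotype here is that of the fibroblasts.

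At 24 h the Kit readings gave no order between genotypes. KO minus WT was 0.74 (SE 0.39) as measured, within 2 SE of 0, where 5.76% of all genes were at least 2-fold higher. The raw spot means ran the other way, at 63.1 units on WT 24 h and 60.2 on KO 24 h, over a local background of 24.0 on each. The settings gave 0.26 to 1.66. Kit at this time was not well above background in WT and dim in KO. The KO and WT differences between times could not be compared for Kit, because the WT 24 h reading was not well above background.

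Most transcription factors that act on Kit in blood cells were, like Kit, lower at 24 h. Some genes stand in more than 1 list: Gata1, Gata2 and Mitf are also mast cell markers, Vav1 a leukocyte marker, and Pdgfra and Pdgfrb fibroblast markers. Of 12, all were well above background at 0 h, and at 24 h 7 (WT) and 8 (KO) were. In WT 4 of 7 measured were at least 2-fold lower at 24 h (5.57% over all genes) and none higher (median −2.04), with at-least folds the same way for 5 more. In KO 5 of 8 were lower (10.9% over all genes) and none higher (median −2.62), with 4 more by at-least folds. The pan-leukocyte markers were lower at 24 h too, so this is not particular to Kit factors. Of them 12 of 14 measured were lower in WT (median −4.95) and 15 of 16 in KO (median −7.23). Lyl1, a basic helix-loop-helix factor, differed by −8.19 in WT and −9.21 in KO. Mitf, a factor required for mast cell and pigment cell development, differed by −2.04 and −2.77, and Gata2, needed for mast cell formation, by −5.34 and −4.30. These 3 were still well above background at 24 h. Sp1 (0.29 and 0.14) and Ldb1 (0.17 and 0.34), which most cells express, stayed within 2-fold. At 24 h Gata2 read −2.16 in WT and 0.06 in KO, a difference of 2.22 (1.78 to 2.53 over the settings). Of the Kit transcription factors, 6 of 12 were at least 2-fold higher in KO at 0 h, against 9.26% of all genes, and none lower. With spike-in scaling 0 were higher and with fibroblast marker scaling 9. Of 20 pan-leukocyte markers 16 were higher in KO at 0 h, 1 with spike-in scaling and 20 with fibroblast marker scaling.

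The adaptors and kinases below Kit held some that are known from blood cells and many that most cells use. In WT 30 of 36 measured stayed within 2-fold between times, none was higher (15.8% over all genes) and 6 were lower (5.57%), with 3 more lower by at-least folds. The 6 were the exchange factor Vav1 (−7.84), the kinases Fes (−6.26) and Btk (−6.05), the adaptors Lat2 (−6.06) and Lat (−5.83), and Pik3cd (−3.98), the leukocyte PI3 kinase subunit. In KO 11 of 38 were lower (10.9% over all genes) and 2 higher (9.47%), and with fibroblast marker scaling 18 were lower and 0 higher. Of the 6, Fes, Vav1, Btk and Pik3cd have more than 1 probe. In WT the Fes probes gave −6.26 and −4.21, the Vav1 probes −7.84 and −4.51, and the Btk probes −6.05 and −4.44. The 3 Pik3cd probes ran from −4.53 to −2.97. Grb2, the adaptor that brings Sos to the receptor, differed by −0.27 and −0.93. Its second probe gave −0.44 and −1.35, past 2-fold in KO. Ptpn11 (SHP2), a phosphatase that aids Ras signalling, differed by 0.15 and 0.53. The list's median was 0.20 in WT and 0.12 in KO, against 0.28 and 0.23 over all genes, and turned to −0.09 and −0.91 with fibroblast marker scaling.

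Stat5a and Stat5b, the transcription factors that Kit and the IL-3 receptor activate, differed between times more in KO than in WT. Stat5a read 1.49, 2.41, 1.05 and −0.37. Stat5b read 2.05, 2.70, 1.67 and 0.72. KO minus WT at 24 h was −1.41 for Stat5a, past 2-fold in all 6 settings, and −0.95 for Stat5b.

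Of the inhibitors of Kit signalling, 6 of 19 measured in WT and 6 of 18 in KO were at least 2-fold lower at 24 h, against 5.57% and 10.9% of all genes. With fibroblast marker scaling the KO count was 9. In WT these were Prkcb (−9.12), a protein kinase C, Sla (−7.04), an adaptor that lowers receptor levels, Inpp5d (−5.74), the lipid phosphatase SHIP1, Dok2 (−4.84), Ptpn6 (−2.16), the phosphatase SHP1, and Socs1 (−2.12). The ubiquitin ligases Cbl (0.63 in WT, 0.87 in KO) and Cblb (0.37, −0.33), which mark activated Kit for breakdown, stayed within 2-fold. At 24 h Inpp5d was lower in KO than in WT by −2.54, at −5.35 against −2.81.

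**Figure D5:**
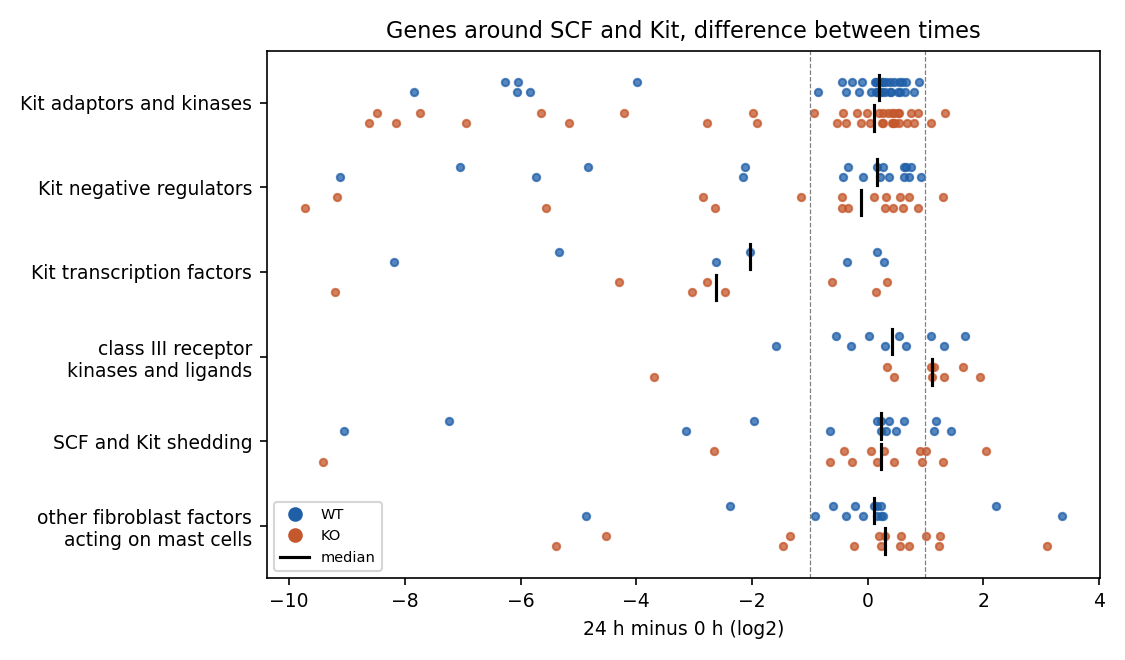
The 24 h minus 0 h difference (log2) of the measured genes of 6 lists around SCF and Kit, in WT (blue) and KO (orange), with the median of each as a black bar and 2-fold as dashed lines. Most adaptors, kinases and inhibitors lie within 2-fold and a minority lies far below, while 4 of 7 (WT) and 5 of 8 (KO) Kit transcription factors are past 2-fold lower.

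Among proteases and inhibitors that set how much SCF and Kit is cut from the cell surface, Timp3 had the largest genotype difference. Timp3, which inhibits ADAM17 and other surface proteases, read −1.74, 2.83, −3.70 and 2.57. Its KO reading was higher by 4.57 at 0 h and 6.27 at 24 h, past 2-fold in all 6 settings. Adam17, which cleaves Kit, differed between genotypes by −0.36 and −0.42 and between times by 0.23 and 0.17. Its 2 probes ran from −0.42 to 0.14 for KO minus WT at 24 h and from −0.06 to 0.23 for the times in WT. Those signs thus depend on the probe. Mmp9, which releases SCF in bone marrow, differed by −0.27 and 0.59 between genotypes and by 1.19 (WT) and 2.05 (KO) between times. Cma1, the mast cell chymase, which cuts SCF, had the lowest time differences, −9.05 and −9.42. Adam33 had the lowest KO minus WT differences of the list, −1.45 at 0 h and −2.34 at 24 h, with dim KO readings of −5.39 and −5.79. Its 3 probes ran from −1.45 to −0.35 at 0 h and from −2.34 to −1.92 at 24 h. Mmp14 was lower in KO by −1.24 and −1.39, and Mmp2 higher by 1.57 and 1.42. With fibroblast marker scaling Mmp14 at 0 h was −0.19. Of 15 genes 3 were higher and 3 lower in KO at 0 h, where the shares over all genes were 9.26% and 4.04%, and with fibroblast marker scaling 7 were higher and 0 lower. At 24 h 4 were higher and 3 lower of 14 measured, beside 5.76% and 12.2% of all genes, and with spike-in scaling 1 was higher and 4 lower.

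The other class III receptor kinases and their ligands showed a low KO reading of Pdgfra beside that of Kitl. Pdgfra, a platelet-derived growth factor receptor of fibroblasts, differed by −2.67 at 0 h and −1.29 at 24 h, against −2.06 and −1.24 for Kitl. Of this list 1 of 10 measured was at least 2-fold lower in KO at 0 h and 2 of 9 at 24 h, with 1 more lower there by an at-least fold, and none was higher. These few genes stand beside 4.04% and 12.2% of all genes lower. With fibroblast marker scaling 3 were higher and 1 lower at 0 h, and 0 were past 2-fold at 24 h. Flt3l, a ligand for blood progenitors, was the second at 24 h, at −1.11, and its second probe gave −0.75. Csf1, the macrophage growth factor, differed by −0.64 and 0.23, but its 4 probes ran from −1.33 to 0.64 at 0 h. Pdgfrb differed by −0.36 and −0.12.

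Other factors listed as acting from fibroblasts on mast cells differed between genotypes in both directions. At 0 h 4 of 17 measured were at least 2-fold higher in KO and 4 lower, and at 24 h 6 of 15 were higher and 5 lower. Over all genes the shares were 9.26% and 4.04% at 0 h and 5.76% and 12.2% at 24 h. The higher ones include Il4 at 0 h (1.24) and Lif at 24 h (1.30), which were lower at 24 h than at 0 h, like the mast cell markers. Il4 was lower by at least 93.6-fold in WT and 318-fold in KO, and Lif by −4.86 and −4.52. Which cells gave these signals was not tested. The split depends on the scaling: with fibroblast marker scaling 10 were higher and 2 lower at 0 h, and with spike-in scaling 1 was higher and 4 lower at 0 h and 2 higher and 5 lower at 24 h. Cxcl12, a chemokine for mast cell progenitors, was lower by −1.29 and −1.21, Ptn (pleiotrophin) by −2.12 and −3.11, and Il33 by −2.91 and −3.18. With fibroblast marker scaling Cxcl12 was −0.23 at 0 h and −0.90 at 24 h, short of 2-fold, while Ptn (−1.07 at 0 h) and Il33 (−1.86) stayed past it at 0 h, as did Kitl (−1.01), which was short of it at 24 h (−0.93). Il11, an IL-6 family cytokine, was higher in KO by 1.57 and 2.35, Bdnf, a neurotrophin, by 1.19 and 2.15, and Tslp, an epithelial-type cytokine, by 1.10 and 1.16. Il6, a cytokine, had time differences of −2.37 (WT) and −5.39 (KO), and its KO minus WT differences were 0.80 and then −2.21.

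The genes whose pattern over the 4 arrays was closest to that of Kitl were Steap2, Slc11a1, Denn2b, Sox12, Camk2n2 and Htra1. Closeness was the root mean square difference from Kitl after each gene was centred on its own mean, and ran from 0.03 to 0.12 log2 among 12892 genes. Steap2 read 3.82, 1.78, 4.21 and 2.99. Its 3 probes gave KO minus WT differences from −2.63 to −1.36 at 0 h. Htra1, a secreted protease, differed by −2.08 and −1.51 between genotypes. The genes closest to Kit, with values of 0.09 to 0.37 among 13280 genes, were Rprm, Rab44, Alox5, Tph1, Csf2rb2 and Atp8b5. Rprm read 4.19, 5.32, −6.18 and −5.50 and Rab44 read 4.67, 6.05, −5.54 and −5.13. Alox5 and Tph1 are among the mast cell markers. The 3 probes of Atp8b5 disagreed, from −9.79 to 0.58 for the times in WT. The WT 24 h readings of Kit, Rprm and Atp8b5 (−6.32) are near or below the lowest signal well above background on that array (−6.16), so the order of these genes is not firm. With 4 arrays, likeness to either gene rests on few values and is given as a description.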

How the data were processed

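The authors' scanner files hold spot intensity, extracted per the file headers with Agilent Feature Extraction 12.1.1.1, with spatial and multiplicative detrending on. The series' value table, as deposited, is a ratio: the authors' processed signal over that array's 75th percentile, constant over all spots of an array, with medians of 0.0442, 0.0483, 0.0452 and 0.0334 in the order of the report. It is linear, uncentred and runs with signal. What was computed here: control spots were left out, log2 was taken and the 75th percentile of 43020 spots subtracted. Outlier spots were in that percentile and were left out afterwards, when spots were averaged to probes. Of 39429 probes 29104 were named through RefSeq accessions (GRCm38.p6) and 10325 kept the file's name. A gene took its brightest probe. Genes of 9 lists (172 genes, all on the array) were counted past 2-fold. The members, the lists and the rule for named genes (up to 4 list members at each end, 6 nearest patterns; members shown to round out a list's account were named beyond it) were chosen with earlier results of these data known. Alternatives were quantile normalization, normexp followed by quantile normalization (offset 50, limma 3.58.1 in R 4.3.3), and the value table. Others were scaling to bright probes, to the median level of fibroblast or mast cell markers, or to 8 spike-in RNAs. Counting and ranking steps were tested on simulated data.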

Additional observations from a re-analysis of the deposited data

Results flagged for a closer look

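Of the listed genes well above background on every array, 4 were at least 2-fold apart between genotypes in opposite directions at the 2 times, higher in KO at 0 h and lower in KO at 24 h. The difference of differences was −2.44 (SE 0.33) for Btk, a kinase below Kit, −2.57 (SE 0.31) for Hdc, −2.09 (SE 0.30) for the leukocyte gene Cd53 and −2.72 (SE 0.35) for Dock2. KO minus WT for Btk was 1.20 at 0 h and −1.24 at 24 h. Both Btk probes and both Dock2 probes had these signs. With 1 array per group these differences were not tested. The share of all genes with such opposite calls was not counted, so the 4 have no background beside them. Taken singly, 9.26% of genes were at least 2-fold higher in KO at 0 h and 12.2% lower at 24 h. The difference of differences passed 2-fold in either direction for 18.0% of 17143 genes. The 2-fold calls depend on the setting: over the 6 settings the lowest KO minus WT at 0 h was 0.96 for Btk, 0.75 for Hdc, 0.81 for Cd53 and 0.92 for Dock2, and the value nearest 0 at 24 h was −0.39, −0.83, −0.53 and −0.33. The signs held in all of them.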

How the results depend on the processing

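No paired analysis was possible because each group has 1 array. Both genes have 1 probe, so no other probe or mean of probes could be tried, and no replicate could be left out. No called difference of Kitl or Kit changed sign in the 6 (Kitl) or 7 (Kit) alternatives. The value table holds the same signals up to rounding. For Kitl, fibroblast marker scaling gave −1.01, −0.93, 0.17 and 0.24 for KO minus WT at 0 h and 24 h and 24 h minus 0 h in WT and KO, and 0.08 for the last less the one before. Spike-in scaling gave −2.31 and −1.68 for KO minus WT and 0.92 for the times in KO, normexp −1.71 and −0.93 for KO minus WT, quantile normalization 1.51 and bright-probe scaling 1.06 for the times in KO. For Kit, KO minus WT at 0 h was 1.97 with fibroblast markers, −0.22 with mast cell markers and 0.67 with spike-ins, and at 24 h 1.66 with quantile normalization, 0.26 with mast cell markers and 0.30 with spike-ins. For the times in KO, Kit gave −9.05 (normexp), −11.80 (fibroblast markers), −2.88 (mast cell markers) and −11.13 (spike-ins). In WT it gave −11.19 (quantile), −8.43 (normexp) and −3.37 (mast cell markers). These WT values are given only as measured, because the WT 24 h reading was not well above background. For the same reason the KO less the WT time difference of Kit is no measured comparison; its values as computed were 0.62, −0.61, −0.92 and 0.49 with quantile normalization, normexp, fibroblast and mast cell markers, against −0.18. The scalings move a value by their own constant; the cause of the other moves was not tested.

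Counts of genes past 2-fold were 2704 (KO minus WT, 0 h), 3119 (24 h), 4099 (times, WT), 3646 (times, KO) and 3083 (difference of differences). They were 1348, 1347, 1193, 2187 and 1128 with normexp, 5203, 9253, 10948, 7978 and 12299 with no filter on dim probes, and 1687, 1968, 1675, 2998 and 1711 with the stricter filter. Higher calls were 69.6%, 32.0%, 73.9%, 46.5% and 26.1% of calls in this order, 58.1%, 46.2%, 64.9%, 60.8% and 45.5% with quantile normalization, and 59.3%, 50.3%, 38.6%, 45.5% and 41.4% with normexp.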
